A study of Homo sapiens with 16 samples.

Results

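The genes described here carry HLA class I molecules from the cutting of their peptides to their assembly. They are 9 of the 58735 genes in the count table, chosen by name: the heavy chain genes HLA-B, HLA-C, HLA-E and HLA-F, the light chain gene B2M, the peptide transporter gene TAP1, and the immunoproteasome genes PSMB8, PSMB9 and PSMB10. All 9 were found, and all 9 passed the filter on low counts in both fits. Their RNA levels were followed in 8 groups of 2 libraries each, 16 in all, from 4 established lines of human breast cancer. HCC1806, a triple-negative line, and BT474, a line with ERBB2 amplification, were grown as monolayers (2D) and as spheroids collected at day 10 and at day 20. CAL148 (triple-negative) and ZR-75-30 (ERBB2-amplified) were grown as monolayers only. HCC1806 and ZR-75-30 were kept in RPMI 1640 and BT474 and CAL148 in DMEM, each with 10% fetal bovine serum, so a difference between lines of the 2 media cannot be told apart from a difference of medium. The labels name no added agent and no genetic change in any group. The treatment label of the 8 spheroid libraries reads as for monolayers, and their groups were taken from the titles. No label says whether the 2 libraries of a group came from separate cultures, so p-values measure only the spread between these libraries, which may be technical.

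An HLA class I molecule is a heavy chain bound to beta-2-microglobulin, the product of B2M, with a short peptide in its groove. Proteasomes cut the peptides, the transporter made of TAP1 and TAP2 pumps them into the endoplasmic reticulum, aminopeptidases such as ERAP1 trim them, and tapasin (TAPBP), calreticulin (CALR) and PDIA3 help to load them. Under interferon, PSMB8, PSMB9 and PSMB10 take the places of the catalytic subunits PSMB5, PSMB6 and PSMB7, which turns the constitutive proteasome into the immunoproteasome. HLA-B and HLA-C show peptides to T cells, HLA-E is read mainly by receptors of natural killer cells, and HLA-F is a less variable heavy chain. NLRC5 is the transactivator of class I genes, and tumour cells often keep this machinery low.

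Sequences before annotated starts of 6 of the genes show which short patterns they hold. They are from RefSeq (GRCh38.p14), whose table held 8 of the 9 genes, without HLA-E. The 250 bases before each annotated start were searched on both strands for the interferon-stimulated response element (GAAA, any 2 bases, GAAA), for its core (AA, any 2 bases, GAAA) and for an NF-kB pattern (GGGA, any 4 bases, CC). Capitals mark their matches, and every match to the full element also holds the core. HLA-B and HLA-C are shown because their levels parted between lines, B2M because every heavy chain needs it, and the short sites of TAP1, HLA-F and PSMB10 because they hold the full element. Of the 250 bases searched, exons that the reference annotation (GENCODE) gives to the same gene take up all 250 in TAP1, 237 in PSMB10 and 155 in HLA-F, so these windows are not plainly upstream of the gene.
HLA-B (chr6:31357189-31357429, minus strand): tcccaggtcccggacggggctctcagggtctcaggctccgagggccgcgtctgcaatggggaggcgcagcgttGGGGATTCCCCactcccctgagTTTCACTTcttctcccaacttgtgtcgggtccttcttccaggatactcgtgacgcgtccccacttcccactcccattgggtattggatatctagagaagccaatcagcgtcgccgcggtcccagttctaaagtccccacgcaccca
HLA-C (chr6:31272131-31272342, minus strand): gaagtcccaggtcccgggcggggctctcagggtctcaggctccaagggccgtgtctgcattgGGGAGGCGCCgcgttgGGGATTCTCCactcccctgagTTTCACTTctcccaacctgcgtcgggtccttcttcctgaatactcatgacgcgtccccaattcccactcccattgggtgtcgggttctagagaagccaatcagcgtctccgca
B2M (chr15:44711267-44711486, plus strand): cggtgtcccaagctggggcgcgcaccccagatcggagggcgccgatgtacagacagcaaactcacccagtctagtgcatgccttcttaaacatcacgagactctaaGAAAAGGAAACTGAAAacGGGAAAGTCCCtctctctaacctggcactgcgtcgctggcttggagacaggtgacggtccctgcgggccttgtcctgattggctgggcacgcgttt
TAP1 (chr6:32853818-32853843, minus strand): gccgcTTTCGATTTCGCTTTCcccta
HLA-F (chr6:29723273-29723292, plus strand): cagagTTTCTCTTTCtctcc
PSMB10 (chr16:67936857-67936876, minus strand): aaggcGAAAGCGAAAgcagg
The full element was matched at 2 overlapping places each in B2M and TAP1 (the first of its 2 annotated starts), and at 1 place each in HLA-F and PSMB10. It occurs in 3.02% of the 35116 promoters searched over the same length, the core in 20.3% and the NF-kB pattern in 22.6%. HLA-B and HLA-C held the core once each and no full element. Each of these 2 genes had 2 matches to the NF-kB pattern, which overlapped each other on opposite strands in HLA-B and lay apart on the same strand in HLA-C. B2M and the first start of TAP1 also had 2 matches each to that pattern. Neither PSMB8 nor PSMB9 had a match to any of the 3 patterns in these windows. The window of PSMB9 begins at 32853942, so the site printed for TAP1 (32853818 to 32853843) lies outside it and was not searched for PSMB9. A match is a run of letters and says nothing of binding.

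Of the 9 genes, 7 lie in the major histocompatibility complex on chromosome 6 (GRCh38, positions from the count table). HLA-F lies at 29722775 to 29738528 and HLA-E at 30489467 to 30494205, both on the plus strand. HLA-C (31268749 to 31272130) and HLA-B (31269491 to 31357188) are on the minus strand, and their annotated spans overlap. PSMB8 (32840717 to 32844703, minus), PSMB9 (32844136 to 32859585, plus) and TAP1 (32845209 to 32853978, minus) are neighbours. B2M is on chromosome 15 (44711487 to 44718877, plus) and PSMB10 on chromosome 16 (67934502 to 67937087, minus). Exons of genes on the opposite strand cover 28.5% of the exon bases of HLA-F, 20.6% of PSMB8, 17.8% of HLA-B and 9.49% of TAP1, and AC040162.1 covers 34.8% of PSMB10 on the same strand. The strand setting of the counting is not given in the sources used here, so reads in these stretches may have been shared or lost. Of the 100-base stretches of the reference transcripts, 4.04% in HLA-F, 0.491% in HLA-E, 0.126% in HLA-C and 0% in HLA-B also occur in another HLA gene. The reference holds 1 allele of each gene, and reads of alleles unlike it may have been lost, which was not tested.

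The libraries held 29696358 to 72489002 counts, and 3 counts, taken as the floor, stood for 0.0421 to 0.146 CPM (the unit of level used here, counts scaled by library size with edgeR's TMM factors). Floors and intervals cover counting error only. The 2 HCC1806 monolayer libraries stood apart, with an SD of the log2 difference between replicates, over 21700 genes, of 1.87. CAL148 had 0.966, ZR-75-30 had 1.13, and 5 groups lay between 0.499 and 0.63. Mitochondrial genes took 17.8% of the counts in HCC1806 monolayer replicate 1 and 20.5% in ZR-75-30 replicate 2, and 0.768% to 6.30% in the other 14 libraries. Those 2 libraries also had the lowest TMM factors, 0.783 and 0.641. The median log2 difference of the 9 genes, replicate 1 minus replicate 2, was 3.34 in the HCC1806 monolayers and -1.21 in ZR-75-30. The same median over all genes was not computed, and the part of the mitochondrial share in these differences was not tested. The 8 epithelial markers summed to between 2288 and 11259 CPM in every library. Of the 14 leukocyte markers, CD2 was at 0 in all 16 libraries and PTPRC in 13, with at most 4 counts. Their sum ran from 0.585 to 417 CPM, the top value being HCC1806 monolayer replicate 1, where CD74, the class II invariant chain that epithelial cells can also make, reached 405 CPM. Fibroblast markers summed to 1.79 to 102 CPM and endothelial markers to 0.487 to 9.08 CPM.

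**Figure D1:**
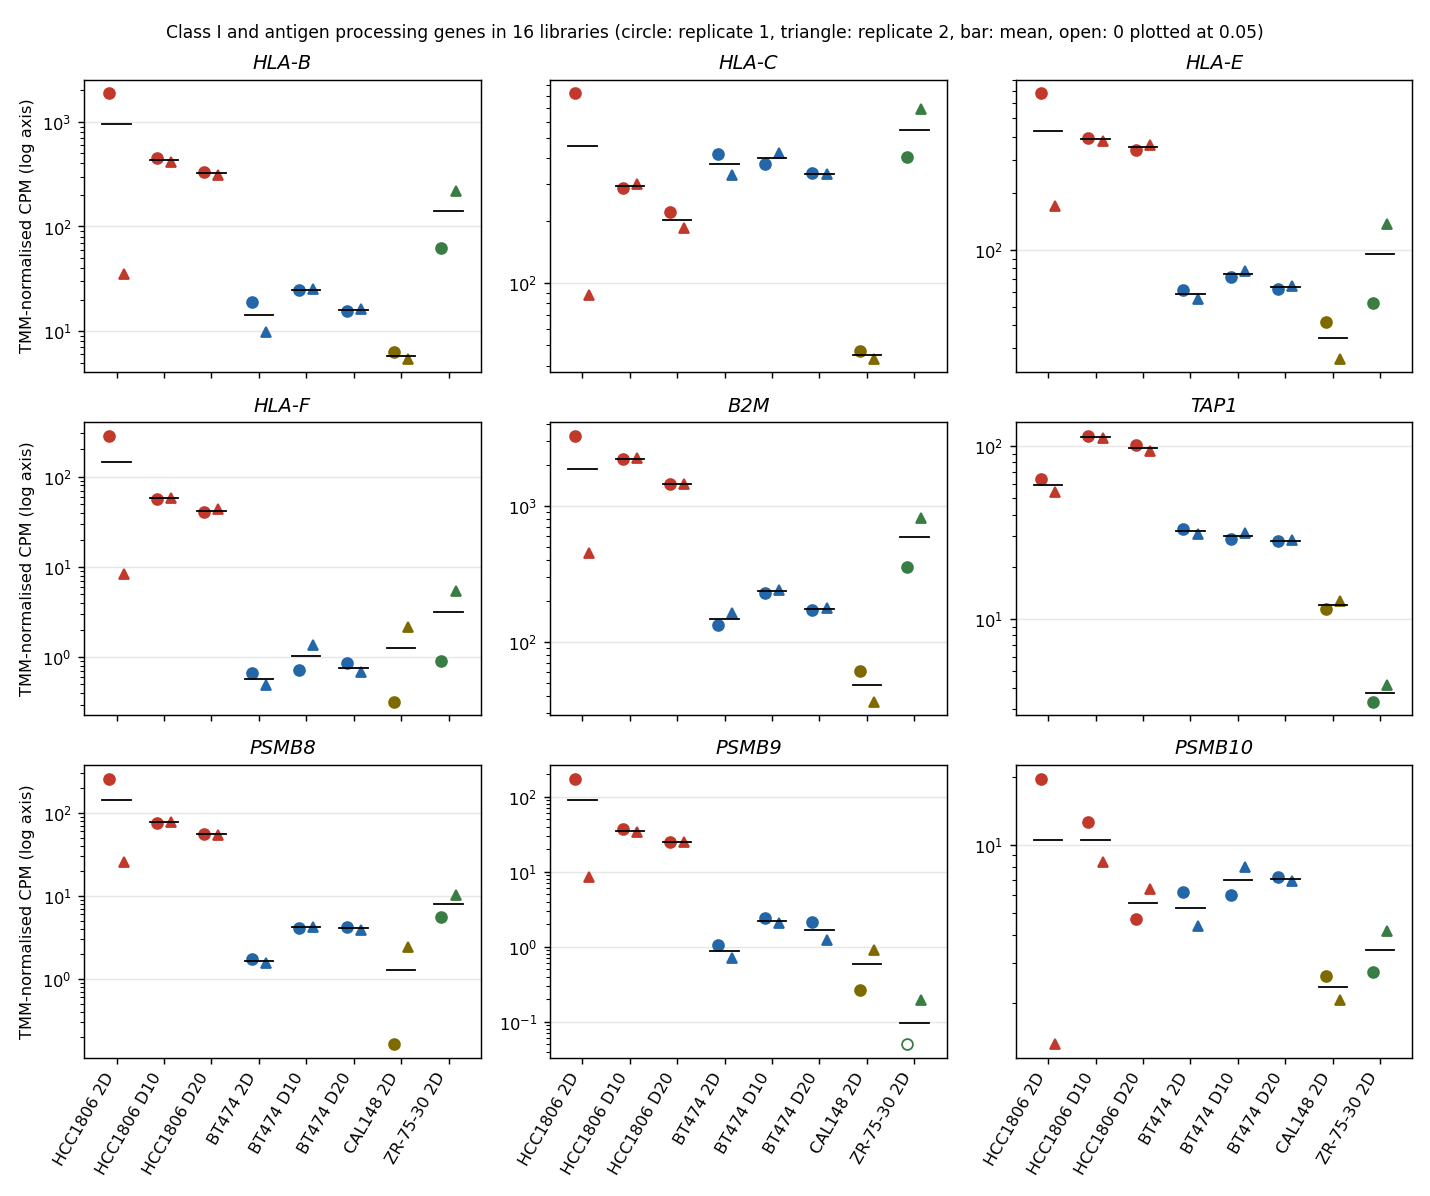
TMM-normalised CPM (log axis) of the 9 genes in the 8 groups, with a circle for replicate 1, a triangle for replicate 2 a bar for the mean of 2 libraries and an open circle for a level of 0, drawn at 0.05. The HCC1806 monolayer pair spans the HCC1806 spheroids in every panel but that of TAP1, and HLA-C stands at 331 to 424 CPM in BT474.

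HLA-B spread widely between lines, over a 347-fold range. In HCC1806 it stood at 1883 and 35.3 CPM in the monolayers, at 450 and 417 at day 10, and at 333 and 310 at day 20. BT474 had 18.8 and 9.90 CPM in the monolayers, 24.5 and 25.0 at day 10, and 15.7 and 16.3 at day 20. CAL148 had 6.27 and 5.43 CPM and ZR-75-30 61.9 and 218. Both ZR-75-30 libraries were thus above all 8 libraries of BT474 and CAL148, and HCC1806 monolayer replicate 2 fell below both ZR-75-30 libraries. In the order of group means, HCC1806 monolayers overlapped day 10 spheroids and BT474 day 20 spheroids overlapped monolayers, and the other 5 neighbouring pairs were apart.

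HLA-C ran over a 19.2-fold range and followed another order. ZR-75-30 had 404 and 690 CPM, and the BT474 monolayers 421 and 331. The BT474 spheroids had 376 and 424 CPM at day 10 and 338 and 336 at day 20. The HCC1806 monolayers stood at 825 and 87.6 CPM, its day 10 spheroids at 287 and 300 and its day 20 spheroids at 220 and 185. All 4 HCC1806 spheroid libraries were therefore below all 4 BT474 spheroid libraries, the reverse of HLA-B. CAL148 was the low line, at 46.8 and 43.1 CPM. Of the 7 neighbouring pairs 4 overlapped, although ZR-75-30 and the BT474 day 10 spheroids both lay above the BT474 day 20 spheroids.

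HLA-E was at 681 and 172 CPM in the HCC1806 monolayers, 395 and 381 at day 10 and 341 and 362 at day 20. BT474 had 61.4 and 55.2 CPM in the monolayers, 72.1 and 77.4 at day 10 and 61.9 and 64.6 at day 20. CAL148 had 41.6 and 26.4 CPM and ZR-75-30 52.4 and 137. Every HCC1806 library was above every library of the other 3 lines, and 2 of 7 neighbouring pairs overlapped. HLA-F was low outside HCC1806, at 0.323 to 5.41 CPM (12 to 111 counts) in those 10 libraries. Its HCC1806 levels were 283 and 8.37 CPM in the monolayers, 56.5 and 58.1 at day 10 and 40.4 and 43.4 at day 20. The 2 CAL148 libraries held 12 and 95 counts of it, and 4 of 7 neighbouring pairs overlapped.

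B2M, the light chain shared by all these heavy chains, had 3286 and 452 CPM in the HCC1806 monolayers, 2209 and 2244 at day 10 and 1442 in both libraries at day 20. BT474 had 134 and 163 CPM in the monolayers, 230 and 243 at day 10 and 172 and 177 at day 20. CAL148 had 60.8 and 36.5 CPM and ZR-75-30 356 and 821. In the order of group means, 2 of the 7 neighbouring pairs overlapped, both among the HCC1806 groups. HCC1806 monolayer replicate 2 also lay between the 2 ZR-75-30 libraries. Both ZR-75-30 libraries were above all 6 BT474 libraries, and these above both of CAL148.

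TAP1, a subunit of the peptide transporter, stood at 64.2 and 54.2 CPM in the HCC1806 monolayers, 114 and 111 at day 10 and 101 and 93.2 at day 20. The 6 BT474 libraries lay between 28.2 and 33.1 CPM. CAL148 had 11.4 and 12.7 CPM and ZR-75-30 3.31 and 4.14. The 4 lines did not overlap, and ZR-75-30, next to HCC1806 in HLA-B and B2M, was the lowest line here.

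PSMB8, the immunoproteasome counterpart of PSMB5, had 260 and 25.7 CPM in the HCC1806 monolayers, 76.7 and 78.2 at day 10 and 55.7 and 54.5 at day 20. BT474 had 1.71 and 1.53 CPM in the monolayers, 4.08 and 4.27 at day 10 and 4.25 and 3.84 at day 20. ZR-75-30 had 5.60 and 10.4 CPM, and the 2 CAL148 libraries disagreed, with 6 and 104 counts (0.161 and 2.39 CPM). All 10 libraries outside HCC1806 were below all 6 of HCC1806.

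PSMB9, the counterpart of PSMB6, had 174 and 8.51 CPM in the HCC1806 monolayers, 36.6 and 33.6 at day 10 and 25.1 in both libraries at day 20. BT474 had 1.05 and 0.707 CPM in the monolayers, 2.40 and 2.05 at day 10 and 2.14 and 1.23 at day 20. CAL148 had 0.269 and 0.897 CPM. ZR-75-30 had 0 and 4 counts, near the floor in both libraries, although its PSMB8 was above that of every BT474 library. PSMB10, the counterpart of PSMB7, had 19.7 and 1.31 CPM in the HCC1806 monolayers, 12.7 and 8.37 at day 10 and 4.71 and 6.42 at day 20. The 6 BT474 libraries lay between 4.36 and 8.0 CPM, CAL148 had 2.64 and 2.05 and ZR-75-30 2.73 and 4.14. Its range was 15.1-fold, and 5 of its 7 neighbouring pairs overlapped.

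Levels of different genes were compared per length, in the deposited FPKM values, fragments scaled by gene length and library size. All 6 BT474 libraries had the order HLA-C (127 to 163 FPKM), HLA-E (17.8 to 25.1), HLA-B (3.12 to 7.91) and HLA-F (0.110 to 0.302). HLA-C made up 82.2% to 86.2% of the sum of the 4 heavy chains there. CAL148 had the same order at lower levels (HLA-C 18.3 and 16.7 FPKM, HLA-B 2.01 and 1.73). In ZR-75-30 HLA-C (153 and 274 FPKM) was followed by HLA-B (19.2 and 71.2). The HCC1806 spheroids had HLA-B, HLA-E and HLA-C close together, at 149, 134 and 115 FPKM in day 10 replicate 1 and at 102, 123 and 74.2 in day 20 replicate 2. HCC1806 monolayer replicate 1 had HLA-B on top (652 FPKM), and replicate 2 had HLA-E on top (59.0 FPKM) with HLA-B at 11.8 FPKM.

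The ratio of HLA-C to HLA-B in FPKM was 18.7 to 40.7 in the 6 BT474 libraries, 9.09 and 9.66 in CAL148, 7.95 and 3.86 in ZR-75-30, and 0.725 to 0.875 in the 4 HCC1806 spheroid libraries. The HCC1806 monolayers gave 0.533 and 3.02. Every library of the other 3 lines was above every HCC1806 library.

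**Figure D2:**
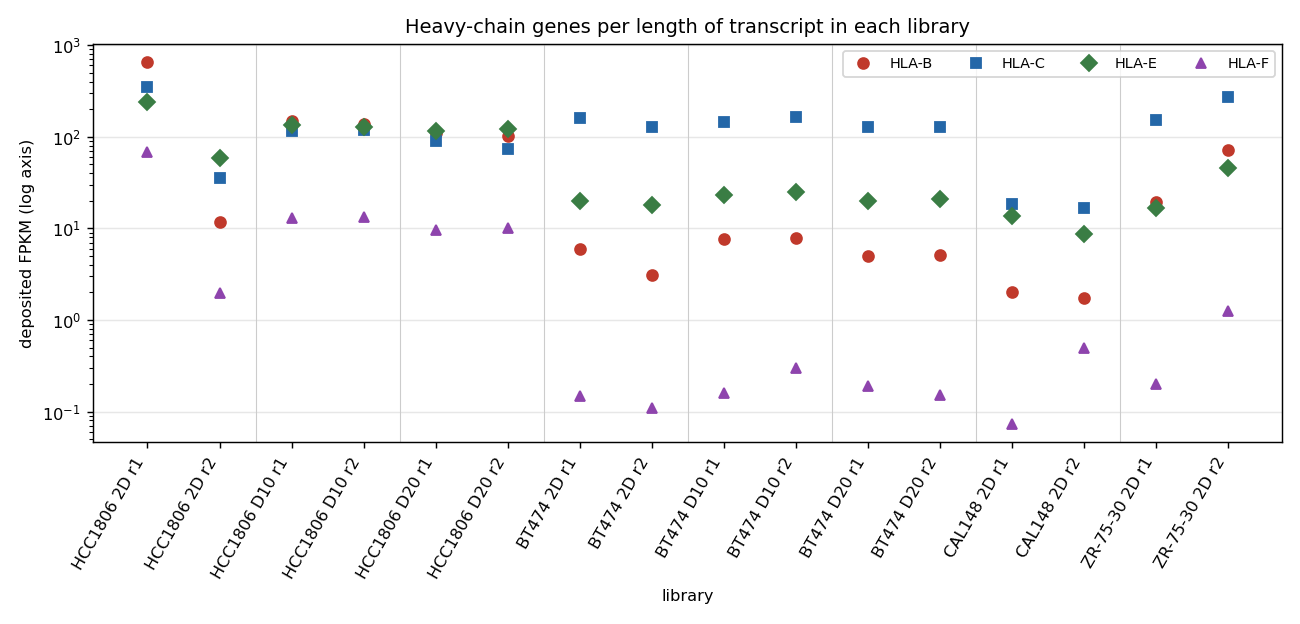
Deposited FPKM (log axis) of the 4 heavy chain genes in each of the 16 libraries, r1 and r2 standing for replicates 1 and 2. HLA-C lies on top in BT474 (127 to 163 FPKM), CAL148 and ZR-75-30, and HLA-B, HLA-C and HLA-E lie close together in the HCC1806 spheroids.

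The immunoproteasome genes were set against their constitutive counterparts in FPKM. PSMB8 reached 0.898 and 0.0709 times PSMB5 in the HCC1806 monolayers, 0.335 and 0.377 at day 10 and 0.273 in both day 20 libraries. In BT474 the ratio was 0.00292 and 0.00297 in the monolayers and 0.00827 to 0.00886 in the 4 spheroid libraries, which did not overlap the monolayers. ZR-75-30 had 0.0101 and 0.0112. PSMB9 stood at 0.315 and 0.0160 times PSMB6 in the HCC1806 monolayers, 0.157 and 0.159 at day 10 and 0.106 and 0.109 at day 20, and at 0.00264 to 0.0101 in BT474. The ratio of PSMB10 to PSMB7 was 0.0715 and 0.00621 in the HCC1806 monolayers, 0.126 and 0.0858 at day 10, 0.0484 and 0.0695 at day 20 and 0.0187 to 0.0348 in BT474. In every library the constitutive gene of each pair was thus the higher one.

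**Figure D3:**
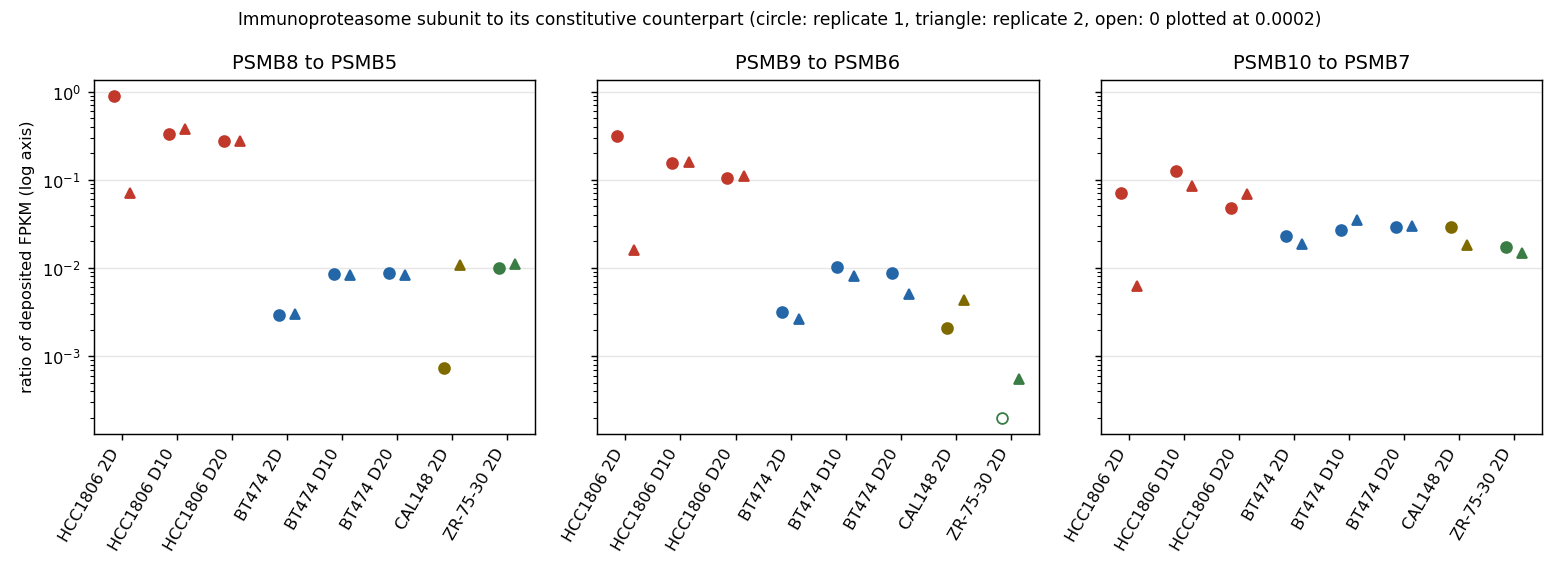
Ratio of the FPKM of PSMB8 to PSMB5, PSMB9 to PSMB6 and PSMB10 to PSMB7 (log axis) in the 16 libraries, circles for replicate 1, triangles for replicate 2 and an open circle for a ratio of 0, drawn at 0.0002. PSMB8 to PSMB5 runs from 0.0709 to 0.898 in HCC1806 and stays at or below 0.0112 in the other 3 lines.

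HCC1806 spheroids were compared with HCC1806 monolayers to see how growth in 3 dimensions changed the set. TAP1 was the 1 member that passed the test. It rose from 59.2 ± 7.02 CPM (SD, n = 2) in the monolayers to 112 ± 2.35 at day 10, a log2 fold change of 0.92 ± 0.15 (SE, edgeR quasi-likelihood test, adjusted p = 0.0105), and to 96.9 ± 5.23 at day 20 (0.70 ± 0.15, edgeR adjusted p = 0.0231). Of all genes tested, 5.14% passed as higher at day 10 and 6.24% at day 20. The other 8 members had log2 fold changes of -1.39 to 0.24 at day 10 with SEs of 0.49 to 1.18. The TAP1 call was lost without either day 10 library (edgeR adjusted p = 0.0957 and 0.0907 at day 10) and with HCC1806 fitted alone (edgeR adjusted p = 0.203 and 0.241), and the day 20 call was lost in 8 of 12 fits that left out 1 library.

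For these 8 members the answer turned on which monolayer library served as reference. All 4 spheroid libraries lay between the 2 monolayer libraries for 8 of the 9 members, against 4789 of 15046 genes with a mean of at least 1 CPM (31.8%). The ratio of replicate 1 to replicate 2 was 53.3 for HLA-B, 33.8 for HLA-F, 20.5 for PSMB9, 15.1 for PSMB10, 10.1 for PSMB8, 9.41 for HLA-C, 7.27 for B2M, 3.97 for HLA-E and 1.18 for TAP1. With replicate 2 alone as reference, whose spread was then assumed to be that of the other groups, all 9 members passed as higher at day 10 (19.6% of all genes did), among them HLA-B by 3.54 ± 0.34 and B2M by 2.22 ± 0.12 on the log2 scale. With replicate 1 alone, 8 passed as lower (52.8% of all genes passed), HLA-B falling by 2.10 on the log2 scale and B2M by 0.55, and TAP1 still passed as higher (0.82 ± 0.11, edgeR adjusted p = 1.08e-05). Interferon-stimulated genes showed the same span, with 28 of 40 between the 2 monolayer libraries (70.0%) and summed levels of 14630 and 1108 CPM in them. What set the 2 libraries apart was not tested.

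**Figure D4:**
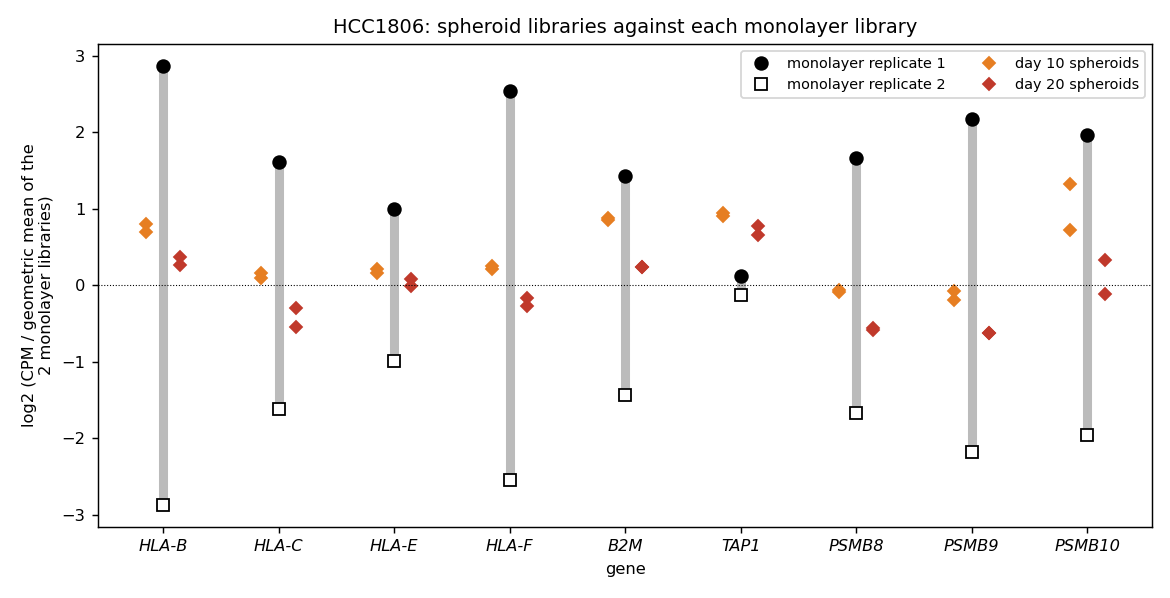
CPM of the 9 genes in the 6 HCC1806 libraries, as log2 of the ratio to the geometric mean of the 2 monolayer libraries, with a circle and a square for monolayer replicates 1 and 2, a grey bar between them and diamonds for the spheroid libraries. The spheroid points lie between the 2 monolayer points for 8 genes, and above both for TAP1 (93.2 to 114 CPM against 64.2 and 54.2).

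Between day 10 and day 20 the levels of all 9 members were lower in HCC1806, with no overlap of the 2 and 2 libraries. Such a lower, separate level was found in 31.3% of the 15046 genes. None of the 9 passed the test in the 12-library fit (0.0% of all genes passed, members at unadjusted p under 0.05 numbered 0, and DESeq2 called 0). That fit takes its spread from all 6 groups, the HCC1806 monolayers included. In the planned fit of the 10 libraries without them, 4 members passed as lower (3.6% of all genes did): B2M fell by 0.62 on the log2 scale (SE 0.08, edgeR adjusted p = 0.000394), HLA-C by 0.53 (SE 0.11, edgeR adjusted p = 0.0117), PSMB8 by 0.48 (SE 0.10, edgeR adjusted p = 0.00754) and PSMB10 by 0.91 (SE 0.25, edgeR adjusted p = 0.0439). HLA-E differed by -0.13 ± 0.08 there and TAP1 by -0.21 ± 0.08, neither past the threshold. In the same fit 25 of 44 interferon-stimulated genes passed as lower, and so did NLRC5 (-0.47 ± 0.12). So did 6 of 8 epithelial markers, whose sum went from 4254 to 4682 CPM at day 10 to 3203 to 3390 at day 20, and the leukocyte markers summed to 82.4 to 83.8 CPM and then 61.7 to 63.9. Their part in the result was not tested.

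BT474 spheroids were compared with BT474 monolayers in the same way. At day 10, the 2 spheroid libraries were above both monolayer libraries for 6 members (28.5% of all genes), namely HLA-B, HLA-E, HLA-F, B2M, PSMB8 and PSMB9, while HLA-C, TAP1 and PSMB10 overlapped. In the 12-library fit no member passed at day 10 (0.129% of all genes passed) or at day 20 (0.234%). None was under an unadjusted p of 0.05, and DESeq2 called none. On counts simulated with the spread that each fit had itself estimated, the 12-library fit recovered 0% of 2-fold changes in this comparison (20929 genes). The 10-library fit recovered 86% (20606 genes), and 1 and 11 unchanged genes were called. The 2 simulations differed in spread, so they do not compare the 2 fits on the same data.

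Without the HCC1806 monolayers, 4 members rose in BT474 at day 10, where 6.58% of all genes passed as higher. Mitochondrial genes took 2.43% and 2.31% of the counts in the BT474 monolayers, 5.74% and 3.89% at day 10 and 6.30% and 5.08% at day 20, and their part in the result was not tested. PSMB8 rose by 1.36 ± 0.13 (log2, SE, edgeR adjusted p = 2.74e-05) and PSMB9 by 1.32 ± 0.26 (edgeR adjusted p = 0.00412). B2M rose by 0.66 ± 0.08 (edgeR adjusted p = 0.000164) and HLA-E by 0.35 ± 0.08 (edgeR adjusted p = 0.00877). HLA-F at 0.91 ± 0.29 and HLA-B at 0.78 ± 0.24 missed the threshold, and TAP1 (-0.09 ± 0.09) and HLA-C (0.08 ± 0.11) lay near 0. At day 20, where 7.4% of all genes passed as higher, PSMB8 (1.31 ± 0.14, edgeR adjusted p = 4.01e-05) and PSMB9 (0.93 ± 0.28, edgeR adjusted p = 0.0364) passed as higher. From day 10 to day 20 B2M fell by 0.43 on the log2 scale (SE 0.08, edgeR adjusted p = 0.0482; 0.189% of all genes passed as lower). Neither the 12-library fit (edgeR adjusted p = 1) nor BT474 fitted alone (edgeR adjusted p = 0.112) made that call of B2M. The day 10 and day 20 effects share the monolayer libraries.

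Other genes of the pathway in BT474 at day 10, in the 10-library fit, were NLRC5, which rose by 0.92 ± 0.14, IRF9 by 1.15 ± 0.35 and IRF2 by 0.35 ± 0.09, while NFKB1, an NF-kB subunit gene, fell by 0.58 on the log2 scale, these 4 being the calls among 18 class I regulators. TAPBP, the tapasin gene, rose by 0.35 ± 0.07 as the 1 call among 8 peptide loading genes, and TAP2 stood at -0.15 ± 0.15. Of 44 interferon-stimulated genes 13 passed as higher and none as lower, where 6.58% of all genes passed as higher. The largest rises were those of the antiviral enzyme gene OAS1 (2.93 ± 0.21), the guanylate-binding protein gene GBP1 (2.52 ± 0.54) and IFI6 (1.94 ± 0.17). Summed levels of the interferon-stimulated genes were 290 to 348 CPM in the monolayers, 456 to 458 at day 10 and 371 to 385 at day 20. LYZ, the lysozyme gene on the leukocyte list, rose from 0.36 and 0.28 CPM to 15.5 and 18.8 at day 10 (5.73 ± 0.59 in the 12-library fit, edgeR adjusted p = 0.0261). The sum of the 14 leukocyte markers went from 2.28 to 3.35 CPM up to 19.3 to 22.7 CPM, with CD2 at 0, and its part in the result was not tested.

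**Figure D5:**
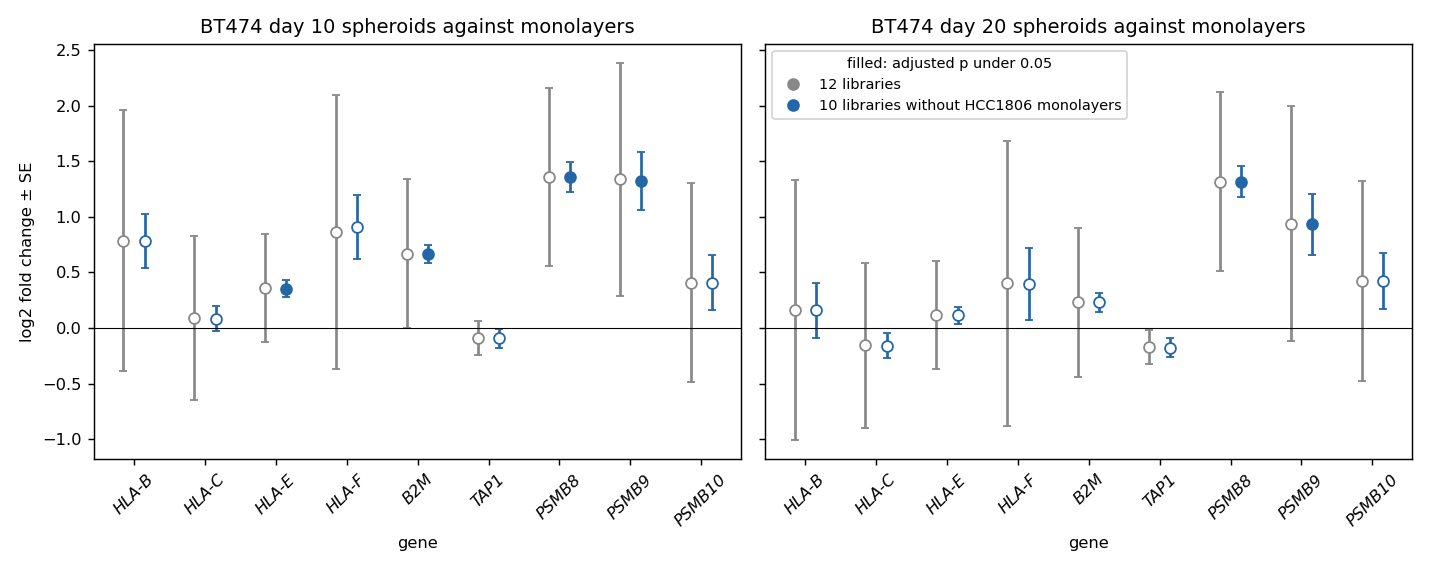
Log2 fold change of BT474 day 10 and day 20 spheroids against monolayers for the 9 genes, with bars of 1 SE, in the 12-library fit (grey) and in the 10-library fit without the HCC1806 monolayers (blue), filled where the gene passed the test. The estimates nearly coincide (PSMB8 at day 10 stands at 1.36 in both), and the SEs are smaller in the 10-library fit.

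Whether the spheroid effect differed between HCC1806 and BT474 was tested as an interaction. No member passed at day 10 (1.35% of all genes passed) or at day 20 (2.77%). TAP1 came closest, with an effect larger in HCC1806 by 1.01 ± 0.22 at day 10 (edgeR adjusted p = 0.0636) and by 0.88 ± 0.22 at day 20 (edgeR adjusted p = 0.0742). Members at unadjusted p under 0.05 numbered 1 at day 10 and 2 at day 20, DESeq2 called TAP1 at each time (10.2% and 11.6% of all genes passed it), and limma on log2 FPKM called TAP1 at day 10 and no member at day 20. The differences for the other 8 changed with the HCC1806 monolayer library used. PSMB8 differed by -2.26 ± 1.10 at day 10 with both, by -3.10 ± 0.16 with replicate 1 alone and by 0.12 ± 0.19 with replicate 2 alone.

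Spheroids of the 2 lines were also set against each other. The HCC1806 monolayers are not in this contrast, but the 12-library fit still takes part of its spread from them. At day 10, 7 of the 9 members were higher in HCC1806 than in BT474, where 23.6% of all genes passed as higher. HLA-F was higher by 5.75 ± 1.33 on the log2 scale (edgeR adjusted p = 0.00824), PSMB8 by 4.21 ± 0.86 (0.00465), HLA-B by 4.13 ± 1.32 (0.0330), PSMB9 by 3.98 ± 1.09 (0.0175), B2M by 3.23 ± 0.73 (0.00744), HLA-E by 2.38 ± 0.51 (0.00596) and TAP1 by 1.90 ± 0.16 (4.47e-05). HLA-C (-0.45 ± 0.74) and PSMB10 (0.59 ± 0.89) did not pass. The same 7 passed at day 20 (23.9% of all genes passed as higher), and the median over the 9 was 3.23 at day 10 and 3.05 at day 20, against 0.09 and 0.10 over all genes tested. Without either BT474 day 10 library the day 10 count was 3 (HLA-E, PSMB8 and TAP1), and without either BT474 day 20 library the day 20 count was 2 (HLA-E and TAP1), the lone library being assumed to vary like the other groups. Over the 12 fits that left out 1 library, the day 10 call of HLA-B held in 2 (highest edgeR adjusted p = 0.151) and that of PSMB9 in 9 (0.107), and at day 20 each held in 8. In the 10-library fit, where the SE of HLA-B at day 10 was 0.25, HLA-C was lower in HCC1806. It was lower by 0.44 on the log2 scale at day 10 (edgeR adjusted p = 0.00291) and by 0.73 at day 20 (edgeR adjusted p = 5.56e-05), where 33.2% and 33.6% of all genes passed as lower. PSMB10 passed as higher there at day 10 (0.59 ± 0.24, edgeR adjusted p = 0.0437) and did not pass at day 20 (-0.33 ± 0.25).

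Other genes of the pathway were compared between the 2 lines at day 10. Of 44 interferon-stimulated genes 31 passed as higher and none as lower. Of 8 peptide loading genes 4 passed as higher: ERAP1 (3.34 ± 0.19), TAP2 (2.70 ± 0.29), PDIA3 (1.70 ± 0.19) and CALR (1.46 ± 0.31). Of 18 class I regulators 8 passed as higher, led by the transcription factor gene IRF1 (2.64 ± 0.77) and NLRC5 (2.45 ± 0.21). The histone methyltransferase gene EZH2 passed as lower (-1.87). In the list of constitutive catalytic, regulator and assembly genes of the proteasome, none of 7 passed as higher. PSMB5 (-1.20 ± 0.17) and PSMB7 (-1.18 ± 0.18) passed as lower. Of 13 class I-like genes 6 passed as higher, led by HFE (8.77) and MICB (4.58), a ligand of the receptor NKG2D. The leukocyte markers summed to 82.4 to 83.8 CPM in HCC1806 and 19.3 to 22.7 CPM in BT474 at day 10, and their part in these differences was not tested.

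Within HCC1806, related genes also moved between monolayers and day 10 spheroids, where 5.14% of all genes passed as higher. ERAP1, the trimming aminopeptidase gene, rose from 22.1 CPM in both monolayer libraries to 78.9 and 74.4 (1.79 ± 0.18, edgeR adjusted p = 0.00188), and no other peptide loading gene passed. RFX5 (1.42 ± 0.23), STAT3 (0.95 ± 0.21) and IRF2 (0.93 ± 0.17) passed as higher among the 18 regulators. JAK1 (0.90 ± 0.14), IFNGR1 (0.69 ± 0.15) and IFNAR1 (0.69 ± 0.14), which carry interferon signals, passed as higher among 11 receptor and kinase genes. PSMB7 (-1.31 ± 0.18), PSMB6 (-1.30 ± 0.16) and POMP (-0.94 ± 0.19), the last a proteasome assembly factor, passed as lower. They were from the list of constitutive catalytic, regulator and assembly genes of the proteasome. The calls of STAT3 and IFNGR1 each held in 2 of 12 fits that left out 1 library (highest edgeR adjusted p = 0.168 and 0.213), and with HCC1806 fitted alone edgeR called none of the genes of these 4 lists. NLRC5 was at 28.1 and 22.2 CPM in the monolayers and 30.8 and 31.9 at day 10, a difference of 0.31 ± 0.20 that did not pass. TAP2 went the other way from TAP1, from 90.6 and 51.1 CPM to 40.7 and 38.6 (-0.85 ± 0.27, edgeR adjusted p = 0.0942). In FPKM, TAP1 was 0.941 and 1.41 times TAP2 in the monolayers, 3.72 and 3.81 times at day 10 and 2.87 and 2.91 times at day 20.

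The 4 lines were compared as monolayers in a fit of all 16 libraries. Against BT474, 7 members were higher in HCC1806 (22.8% of all genes were), from TAP1 at 0.89 ± 0.20 (edgeR adjusted p = 0.004) to HLA-F at 7.96 ± 1.58 (edgeR adjusted p = 0.00225). Without HCC1806 replicate 1, HLA-F was higher by 3.86 and PSMB9 by 3.29, and the call of HLA-B was lost (1.32, edgeR adjusted p = 0.0625). HLA-C (0.28 ± 0.67) and PSMB10 (0.99 ± 0.82) did not pass, and TAP1 missed in the 8 monolayer libraries alone (edgeR adjusted p = 0.0986). Against CAL148, 8 members were higher in HCC1806 (23.4% of all genes were), all but PSMB10. Against ZR-75-30, 5 were higher (22.8% of all genes were), namely PSMB9, HLA-F, PSMB8, TAP1 and HLA-E, the last by 2.17 ± 0.56 (edgeR adjusted p = 0.00967). With HCC1806 monolayer replicate 2 alone, HLA-C was instead lower than in BT474 (log2 fold change -2.08, edgeR adjusted p = 0.00024; 18.7% of all genes passed as lower) and HLA-B lower than in ZR-75-30 (-1.95, edgeR adjusted p = 0.0181; 20.1% of all genes passed as lower). Against ZR-75-30, the calls of HLA-E, HLA-F and PSMB8 were lost both there (edgeR adjusted p = 0.0937, 0.176 and 0.0692) and in the 8 monolayer libraries alone (0.0638, 0.0584 and 0.0627). Without ZR-75-30 replicate 1 the count of members higher in HCC1806 was 2.

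Among the other 3 lines the members split. CAL148 was lower than BT474 in HLA-C (-3.06 ± 0.72, edgeR adjusted p = 0.0102) and TAP1 (-1.41 ± 0.20, edgeR adjusted p = 0.000466), where 13.8% of all genes passed as lower. Neither call held in the 8 monolayer libraries alone (edgeR adjusted p = 0.0899 and 0.0615). ZR-75-30 was lower than BT474 in TAP1 alone (-3.10 ± 0.21, edgeR adjusted p = 4.21e-06; 14.1% of all genes passed as lower), while B2M (1.98 ± 0.68) and HLA-B (3.29 ± 1.18) narrowly missed the threshold (edgeR adjusted p = 0.0509 and 0.0596). Without HCC1806 monolayer replicate 1, B2M and HLA-B passed as higher in ZR-75-30 (edgeR adjusted p = 0.000744 and 0.000254; 17.4% of all genes passed as higher). CAL148 was lower than ZR-75-30 in HLA-B (-4.58 ± 1.25, edgeR adjusted p = 0.0171), HLA-C (-3.61 ± 0.74, 0.00365) and B2M (-3.60 ± 0.73, 0.00333) and higher in TAP1 (1.69 ± 0.20, 0.000113), where 30.1% of all genes passed. The HLA-B call was lost in the 8 monolayer libraries alone (edgeR adjusted p = 0.0975). Over the 2 ZR-75-30 libraries PSMB9 gave 4 counts, and as a ratio of CPM-scaled counts it was 12.4 times higher in BT474 (95% interval 4.63 to 46.5) and 8.57 times in CAL148 (3.14 to 32.7). The 2 CAL148 libraries held 10 and 39 counts of it. These intervals pool the libraries and take each count as independent. Even counts outnumbered odd ones in these data, which was not allowed for, so the intervals may be too narrow even for counting error. In the 2 HCC1806 monolayer libraries PSMB9 was at 174 and 8.51 CPM, too far apart for a single ratio. The fitted log2 difference of PSMB9 from ZR-75-30, which depends on the prior count, was 6.82 without HCC1806 replicate 1 and ran up to 14.8 over fits that left out 1 library, in all of which it passed.

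Across the 16 libraries, which share lines and so are not independent, log2 CPM of HLA-B and B2M had a Pearson r of 0.974, HLA-E and B2M 0.963, and TAP1 and PSMB9 0.905. HLA-C had r between 0.0221, with TAP1, and 0.682, with PSMB10. Among 11193 protein-coding genes, those most like the mean of the 9 members were WNT3A (0.969), BST2 (0.968), IFIT1 (0.961), FBXO2 (0.957) and PLCD1 (0.953). Those most like B2M were PI4K2A (0.975), RARG (0.971), DHRS3 (0.970), APOL6 (0.969) and PLEKHF1 (0.968). Of the interferon genes themselves, IFNB1 was at 0 in all 16 libraries, and IFNG had 2 counts, IFNL1 19 and IFNE 83 over all of them.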

How the data were processed

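The RNA of 16 libraries was read by polyA RNA-seq as 150 bp paired ends. Per the submitters' processing notes, reads were aligned to GRCh38 (hg38) with HISAT2 2.2.1 and counted with featureCounts 2.0.6. The strand setting, the treatment of multi-mapping reads and the annotation release are not given in the sources used here. The authors deposited raw counts per gene, used for all tests, and FPKM values, used to compare genes within a library. Even counts outnumbered odd ones by 1.51 to 2.04 to 1 in every library, so fits were repeated on halved counts, an alternative chosen after seeing the data. Exon overlap and shared 100-base stretches were computed with GENCODE release 29.

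Counts were tested with edgeR 4.0.16 (R 4.3.3; TMM, filterByExpr with a minimum count of 10 and a minimum total of 15, robust quasi-likelihood test, Benjamini-Hochberg adjusted p under 0.05 over all genes tested). The 10 spheroid comparisons used 12 libraries in 6 groups (20929 genes), and the 6 monolayer comparisons all 16 libraries in 8 groups (21700 genes), so that groups shared 1 estimate of spread. CPM are TMM-scaled. Alternatives were other size factors, no filter or a stricter one (1 CPM in 2 libraries), a replicate block, DESeq2 1.42.0, limma 3.58.1 on log2(FPKM + 0.1), other sets of libraries and leaving out each library. The method was tested on simulated data. The 9 genes and the related lists were chosen with earlier results of these data known. Beside the 9, up to 3 called genes with the highest and 3 with the lowest fold change per list could be named, and 5 genes by likeness over the 16 libraries. Related genes named with values outside that rule (TAP2, NLRC5, NFKB1, IRF1 and the like) were chosen after their values were seen.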

Additional observations from a re-analysis of the deposited data

Results flagged for a closer look

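The test of a difference between the spheroid effects of HCC1806 and BT474 was passed by 3 related genes outside the 9. ERAP1 had an effect larger in HCC1806 by 1.69 on the log2 scale at day 10 (edgeR adjusted p = 0.022) and by 2.03 at day 20 (edgeR adjusted p = 0.00912). JAK1 had an effect larger by 1.09 at day 10 (edgeR adjusted p = 0.0454) and by 1.09 at day 20 (edgeR adjusted p = 0.0321). PSMB7 differed by -1.29 at day 20 (edgeR adjusted p = 0.0365). The ERAP1 call was lost in the fit of all 16 libraries at day 10 (edgeR adjusted p = 0.253) and day 20 (0.138), as were those of JAK1 and PSMB7 (0.170 for PSMB7), and 10 of the 12 fits that left out 1 library lost the calls of ERAP1 at day 10, JAK1 and PSMB7.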

How the results depend on the processing

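Over 190 results on single genes and 3668 values under alternatives, 3253 kept direction and side of the threshold, 219 lost the call, 164 gained one and 32 turned direction, 31 of these without HCC1806 monolayer replicate 1. The other was B2M in HCC1806 at day 10, at -0.55 without replicate 2. Over fits leaving out 1 library, the extremes of these log2 fold changes came from leaving out one or the other HCC1806 monolayer library, with 1 exception named at its value. In HCC1806 at day 10 they ran from -2.10 to 3.54 for HLA-B, -1.48 to 1.66 for HLA-C, -0.80 to 1.09 for HLA-E, -2.29 to 2.69 for HLA-F, -0.55 to 2.22 for B2M, -1.73 to 1.51 for PSMB8, -2.30 to 1.96 for PSMB9 and -0.89 to 2.93 for PSMB10. At day 20 they ran, in that order, from -2.54 to 3.10, -2.02 to 1.12, -0.94 to 0.95, -2.74 to 2.24, -1.18 to 1.59, -2.23 to 1.01, -2.78 to 1.48 and -1.81 to 2.00. Line differences ran at day 10 from -2.89 to 2.73 for HLA-B, -1.57 to 1.55 for HLA-C, -1.16 to 0.72 for HLA-E, -3.22 to 1.75 for HLA-F, -1.22 to 1.53 for B2M and -1.31 to 2.49 for PSMB10, and at day 20 from -2.70 to 2.96, -1.86 to 1.29, -1.06 to 0.85, -3.14 to 1.85, -1.41 to 1.37 and -2.24 to 1.60. In monolayers, HCC1806 against BT474 ran from -2.08 to 1.11 for HLA-C and -1.99 to 1.88 for PSMB10, and against ZR-75-30 from -1.95 to 3.93 for HLA-B (the exception, without ZR-75-30 replicate 2) and -1.35 to 2.52 for PSMB10. The cause was not tested.

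The number of the 9 genes called over fits leaving out 1 library ranged from 0 to 9 for HCC1806 at day 10 and at day 20, 0 to 4 for HCC1806 day 20 against day 10, 0 to 5 and 0 to 2 for BT474 at day 10 and day 20, 0 to 1 between them, and 0 to 9 for each line difference. It ranged from 3 to 9 and from 2 to 8 for HCC1806 against BT474 spheroids at day 10 and day 20, and in monolayers from 7 to 9 (HCC1806 against BT474), 8 to 9 (CAL148), 2 to 8 (ZR-75-30), 1 to 5 (CAL148 against BT474), 1 to 6 (ZR-75-30 against BT474) and 3 to 7 (CAL148 against ZR-75-30). With no filter on low counts it was 4 and 5 in HCC1806 at day 10 and day 20, 2 and 1 in BT474, 4 for each line difference, 8 for HCC1806 against ZR-75-30, 4 for CAL148 against BT474, 6 for ZR-75-30 against BT474 and 8 for CAL148 against ZR-75-30. With each line fitted alone it was 0 and 0 in HCC1806 and 4 and 1 in BT474 (0 between day 10 and day 20), and with all 16 libraries 0 in HCC1806 at day 20. The 10 libraries without HCC1806 monolayers gave 4 and 2 in BT474 at day 10 and day 20, 1 between them and 4 for HCC1806 day 20 against day 10. DESeq2 gave 1 for each line difference and 5 for ZR-75-30 against BT474, limma 1 for the day 10 line difference, the 8 monolayer libraries alone 2 for HCC1806 against ZR-75-30 and 0 for CAL148 against BT474, and halved counts 2 for ZR-75-30 against BT474.

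Replicates shared only a number: over 28 pairs of groups, deviations of same-numbered libraries correlated at -0.441 to 0.0781. With the replicate block the number of the 9 called equalled that without it in all 16 comparisons (1 in HCC1806 at day 10 and at day 20, 7 for HCC1806 against BT474 spheroids at each day). Relative log expression size factors moved the median of all genes in HCC1806 against BT474 monolayers from 0.14 to 0.25. Counts were simulated with 2 libraries a group and the spread of the 12-library fit, which includes the HCC1806 monolayers. Of 2-fold changes, 1% (HCC1806 at day 10) and 0% (BT474 at day 10) were recovered over 20929 genes.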
